A study of Mus musculus with 18 samples.

Results

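The genes described here are 9 mouse genes of cell cycle control and growth arrest, chosen by name: the kinase gene Wee1, the inhibitor genes Cdkn1a and Cdkn1b, the cyclin genes Ccnd1, Ccnd2 and Ccne1, and the growth-arrest genes Gadd45a, Gadd45b and Gadd45g. Earlier results of these data were known when the genes were chosen. All 9 matched a symbol in the RefSeq gene table of the assembly GRCm38.p6, which holds 21631 protein-coding genes on the chromosomes of the peak lists. A BMAL1 peak was placed at a gene when its centre lay inside the gene or within 10 kb of either end. By this rule 14 of the 11366 peaks deposited for liver, kidney and heart lay at 7 of the 9 genes, and 2 genes, Cdkn1a and Gadd45a, had none.

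The sites that BMAL1 occupies were read out by ChIP-seq, in which DNA bound by a protein is precipitated with an antibody and sequenced, in wild-type C57BL/6 mice aged 3 to 6 months, which had lived in 12 h of light and 12 h of darkness with free access to food and water. Liver, kidney and heart came from the same animals, 3 mice per tissue, at zeitgeber time 6, which is 6 h after lights on. Each tissue gave 3 ChIP and 3 input libraries, and the authors pooled all libraries of a tissue into 1 peak list. The lists held 4813 peaks in liver, 4034 in kidney and 2519 in heart, and each peak carries a whole-number score that is the authors' own value. The sources used here do not give the scale of that score, which therefore serves only to rank peaks within its list, with rank 1 for the highest. There is 1 list per tissue and no value per animal, so the values below have no error between animals and no test was made between tissues. Read depth is unknown. For the 3 input libraries titled heart, the source label reads kidney, while the tissue label reads heart. What that would do to the heart list was not tested, so values that rest on the heart list are also given without it. The lists hold positions of binding and no expression values, so the tissues were not checked against marker genes. Whole organs were used, so binding in one of their cell types cannot be told from binding in another.

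BMAL1 pairs with CLOCK and binds E-boxes, short DNA elements of which CACGTG is the best known form, at genes that cycle with the day. In liver the link between this clock and cell division is best known through Wee1, whose product phosphorylates and restrains the cyclin-dependent kinase that drives entry into mitosis. Cyclins of the D and E types activate kinases that take a cell towards DNA replication, the products of Cdkn1a and Cdkn1b inhibit such kinases, and the Gadd45 genes encode small stress-response proteins tied to growth arrest and DNA damage.

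Kidney peaks lay at 6 of the 9 genes, Wee1, Cdkn1b, Ccnd1, Ccne1, Gadd45b and Gadd45g. Liver peaks lay at 3, Wee1, Ccnd1 and Gadd45g, and all 3 of these also had a kidney peak. Heart peaks lay at 2, Wee1 and Ccnd2. Over all 21631 protein-coding genes the same rule found a liver peak at 18.3%, a kidney peak at 18.2% and a heart peak at 11.7%. For the 9 genes these shares were 33.3, 66.7 and 22.2%. Since the 9 genes were chosen with earlier results of these data known, their gaps from all genes are described only. Among the 11248 protein-coding genes no shorter than Gadd45g and no longer than Ccnd2, the shortest and longest of the 9, 17.0% had a liver peak, 17.4% a kidney peak and 9.09% a heart peak. A peak of any list lay at 7 of the 9 genes (77.8%) and at 31.0% of all protein-coding genes. Without the heart list these were 6 of the 9 genes and 26.7%. Only Wee1 of the 9 had peaks in all 3 lists (4.41% of all protein-coding genes) and a region where peaks of all 3 overlap (3.13%). With 9 genes, 1 gene moves a share by 11.1 percentage points. The kidney count includes peaks of low rank. With the lists cut to their upper 50% by score it was 3 of 9, with 10.9% of all protein-coding genes. The liver and heart counts were then 3 and 2 as before, with 11.1 and 7.24% of all protein-coding genes.

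The 14 peaks formed 10 separate regions when peaks that share at least 1 bp were joined. Of these regions 7 had a peak in 1 tissue only, 2 were shared by liver and kidney, and 1 was common to all 3 tissues. Over all 9005 regions of the series 79.5% were found in 1 tissue, 14.7% in 2 and 5.76% in 3. Without the heart list, 5 of 8 regions at the 9 genes and 79.9% of all regions were found in 1 tissue. A region shared by liver and kidney and not heart lay at 2 of the 9 genes, Ccnd1 and Gadd45g, and at 5.19% of all protein-coding genes. The map of peak centres along the genes shows that 7 of the 14 peaks were centred no more than 1 kb from the nearer end of their gene. These were the 4 peaks of Wee1, the 2 of Gadd45g and the 1 of Ccne1, with overlapping peaks counted once per list. Of the 14 peaks, 1 lay inside its gene and 3 inside some annotated gene. The same shares over all peaks were not computed, so these counts have no background. For 4 of the 14 peaks another annotated gene also lay within 10 kb, and those are named with the peaks below.

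**Figure D1:**
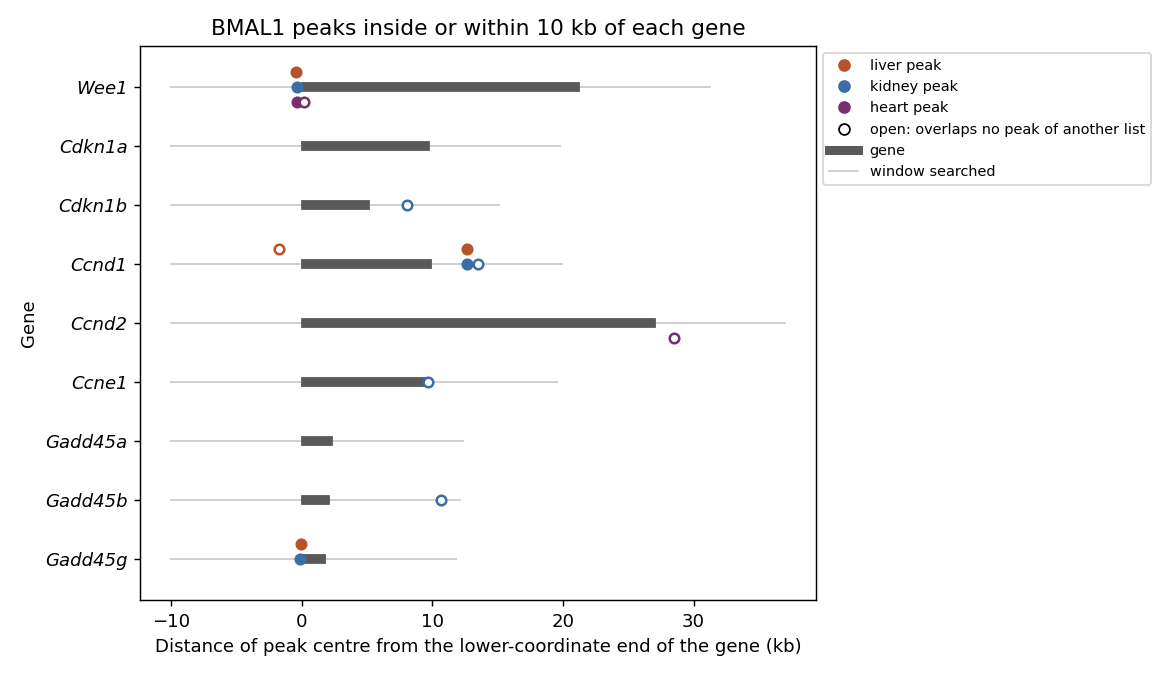
Positions of the 14 BMAL1 peaks at the 9 genes, in kb from the lower-coordinate end of each gene. Dark bars are the genes, thin lines the 10 kb windows, and points the peak centres coloured by list, with open points for peaks that overlap no peak of another list. The liver, kidney and heart peaks of Wee1 stand together at its lower end, while Cdkn1a and Gadd45a have no point.

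Wee1 carried the peaks of highest rank among the 9 genes in every list. The gene spans chr7:110122059-110143299, and the shared region lies just outside its lower-coordinate end. The liver peak (chr7:110121542-110121783) had a score of 154, rank 131 of 4813. The kidney peak (chr7:110121585-110121772) had a score of 107, rank 164 of 4034. In heart the peak at the same place (chr7:110121579-110121776) had a score of 106, rank 124 of 2519. All 3 thus fell in the top 10% of their list, at 2.72, 4.07 and 4.92% for liver, kidney and heart. The 3 centres lay 397, 381 and 382 bp outside the gene and within 16 bp of each other. No other annotated gene lay within 10 kb. Without the heart list the region remains one shared by liver and kidney.

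Heart had a second Wee1 peak, inside the gene (chr7:110122147-110122344), 568 bp from the first. Its score was 49, rank 494 of 2519, and its centre lay 186 bp into the gene from the lower end. The nearest liver and kidney peaks were the shared ones, 583 and 567 bp away. This was the single peak of the 14 inside one of the 9 genes. Such close pairs were rare in the heart list, where 36 of 2519 peaks (1.43%) had another heart peak within 1 kb, against 3.41% in liver and 4.04% in kidney. Among the 1637 heart peaks found in no other list it held rank 43.

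Ordered by mean rank over the 3 lists, the Wee1 region was number 105 of the 519 regions common to all tissues, with a mean rank of 139.7. By liver and kidney alone it was number 116 of 1478 shared regions. Just above it stood regions nearest to Ski (mean rank 138.3), which encodes a repressor of TGF-beta signalling, and Hes1 (131.7), a target of Notch. Just below it stood regions nearest to Pard6b (141.3), a cell polarity gene, and Golga5 (142.0), which encodes a Golgi protein. These are the 2 places on either side of Wee1 in this order, and their ranks within a list differed from those of Wee1. Ski, for example, held rank 244 in liver and 67 in kidney.

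**Figure D2:**
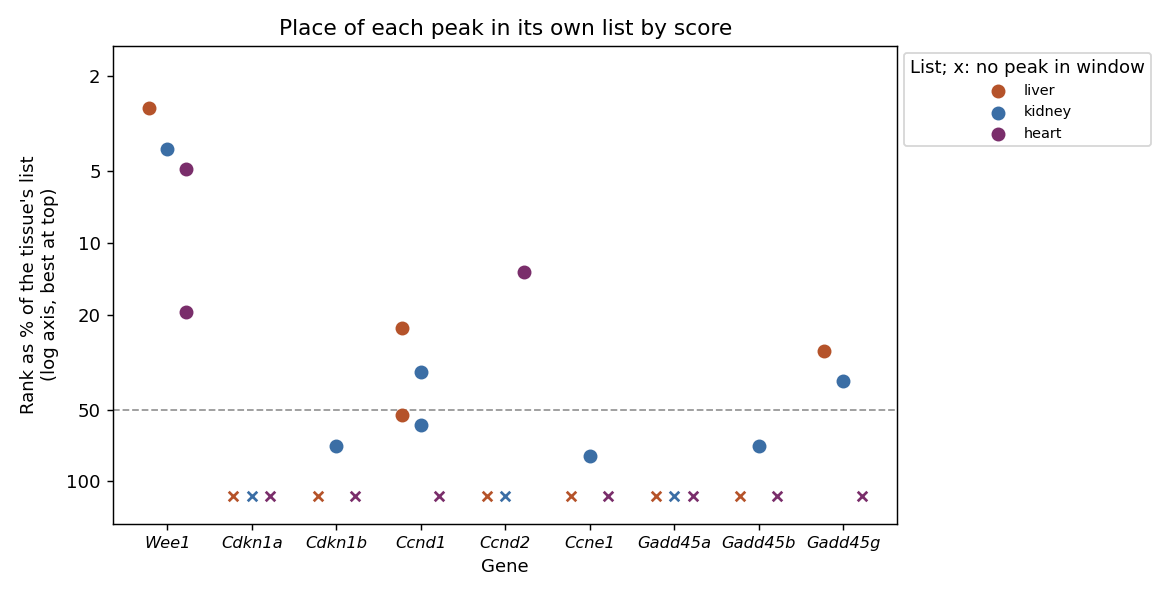
Place of each of the 14 peaks in its own list, as rank in percent of the list on a log axis with the highest scores at the top. Points are peaks, crosses mark lists with no peak in the window, and the dashed line is the middle of a list. The Wee1 peaks sit at 2.72 to 4.92% with a second heart peak at 19.6%, and the kidney peaks of Cdkn1b, Ccne1 and Gadd45b sit below the middle.

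The 2 inhibitor genes had 1 peak between them. Cdkn1a (chr17:29090979-29100722) had no peak in any list within 10 kb. Its nearest liver peak lay 22.2 kb away inside Rab44 (score 35, rank 2707), its nearest kidney peak 44.6 kb away next to Srsf3 (score 36, rank 1408), and its nearest heart peak 147 kb away. Rab44 encodes a small GTPase and Srsf3 a splicing factor. At Cdkn1b (chr6:134920401-134925525) a kidney peak (chr6:134928408-134928595) lay 8100 bp after the annotated start and 2976 bp beyond the other end of the gene. Its score was 20, rank 2878 of 4034, a score held by 153 kidney peaks. The long noncoding RNA gene Lockd lay closer, at 591 bp. The nearest liver peak was 237 kb and the nearest heart peak 159 kb from Cdkn1b.

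Among the cyclin genes, Ccnd1 had 2 liver and 2 kidney peaks and no heart peak. One region, beyond the higher end of the gene (chr7:144929931-144939831), was shared. The liver peak there (chr7:144942449-144942690) had a score of 37, rank 2546 of 4813, and the kidney peak (chr7:144942505-144942692) a score of 36, rank 1408 of 4034. Their centres lay 29 bp apart, 2738 and 2767 bp from the gene. A second kidney peak (chr7:144943317-144943504, score 24, rank 2344) lay 812 bp further out and had no liver partner. The other liver peak lay on the opposite side of Ccnd1 (chr7:144928078-144928319), 1733 bp from its lower end and inside LTO1, a neighbouring coding gene. It had the higher score of the liver pair, 67 at rank 1095, and held rank 312 among the 3199 liver peaks found in no other list. Its nearest kidney peak was 14400 bp away. The nearest heart peak to Ccnd1 was 348 kb away.

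Ccnd2 had a heart peak alone. This peak (chr6:127153553-127153750) had a score of 63, rank 335 of 2519, and lay 1463 bp beyond the higher end of the gene (chr6:127125162-127152188). It also lay inside the long noncoding RNA gene 9330179D12Rik. It stood at 13.3% of the whole heart list. Among the 1637 heart peaks found in no other list, whose median score was 20, it held rank 17, in the top 1.04%. The kidney peaks of these genes found in no other list stood lower among the 2327 of that kind. They were at 41.8% for Ccnd1, 58.2% for Cdkn1b and Gadd45b, and 67.9% for Ccne1. The nearest kidney and liver peaks were 301 and 410 kb from Ccnd2. The Ccnd2 peak and the second Wee1 peak rest on the heart list alone.

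Ccne1 (chr7:38097984-38107490, minus strand) had a kidney peak alone within 10 kb. That peak (chr7:38107583-38107770) was centred 186 bp before the annotated start and had a score of 18, rank 3164 of 4034, which made it the lowest-ranked of the 7 kidney peaks at these genes. A site of far higher rank lay just outside the window, 12.8 kb from the other end of the gene. Over the 9 genes, the outermost peak inside a window was 8528 bp from its gene (Gadd45b, kidney), and this site was the closest of those left outside. There liver (chr7:38085080-38085321) had a score of 235 at rank 26, kidney (chr7:38085132-38085319) a score of 188 at rank 27 and heart (chr7:38085106-38085303) a score of 165 at rank 40. In each list this site ranked above the peaks of Wee1. With a mean rank of 31.0 it was number 24 of the 519 regions common to all tissues, and by liver and kidney alone number 20 of 1478. Ccne1 is the protein-coding gene nearest to it, and the site lies inside the long noncoding RNA gene Gm30771. A window of 20 kb, tried after these values were seen, adds it, and then 5 of the 9 genes have a liver peak (23.1% of all protein-coding genes), 6 a kidney peak (22.9%) and 3 a heart peak (14.8%), with a common region at Wee1 and Ccne1.

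**Figure D3:**
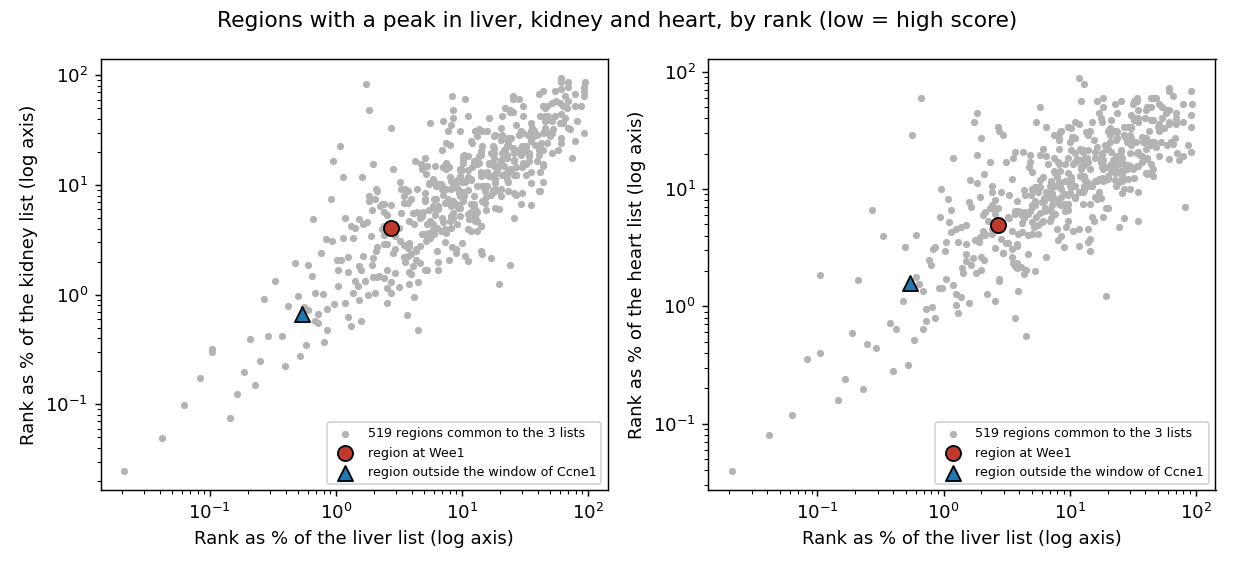
The 519 regions with a peak in all 3 lists, as rank in percent of the liver list against the kidney list (left) and the heart list (right), on log axes with high scores at the lower left. The circle is the region at Wee1 (2.72, 4.07 and 4.92%) and the triangle the region outside the window of Ccne1 (0.54, 0.669 and 1.59%), which stands nearer the lower left in both panels.

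Of the Gadd45 genes, Gadd45g (chr13:51846675-51848475) had a region shared by liver and kidney at its start. The liver peak (chr13:51846473-51846714) had a score of 59, rank 1362 of 4813, and was centred 82 bp before the start. The kidney peak (chr13:51846468-51846655) had a score of 34, rank 1530 of 4034, and was centred 114 bp before it. Heart had no peak there, and the nearest was 195 kb away. Gadd45b (chr10:80930091-80932204) had a kidney peak alone (chr10:80940639-80940826), with a score of 20 at rank 2878. It lay 8528 bp from the gene and 7892 bp from Gng7, the gene of a G protein subunit, which is closer. A liver peak 15.5 kb from Gadd45b (score 71, rank 976) lay outside the window and inside Lmnb2, the gene of a nuclear lamin. Gadd45a (chr6:67035096-67037407) had no peak within 10 kb, with the nearest 65.6 kb away in liver and 101 kb in kidney.

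Because a peak overlaps the promoter window of Gadd45g and of Ccne1, the 250 bases before the annotated start are shown for these 2 genes and, for comparison within the family, for Gadd45a and Gadd45b. Sequences are from RefSeq, build GRCm38.p6, written 5′ to 3′ on the strand of the gene, with the E-box CACGTG in capitals.
Gadd45g (chr13:51846425-51846674, plus strand): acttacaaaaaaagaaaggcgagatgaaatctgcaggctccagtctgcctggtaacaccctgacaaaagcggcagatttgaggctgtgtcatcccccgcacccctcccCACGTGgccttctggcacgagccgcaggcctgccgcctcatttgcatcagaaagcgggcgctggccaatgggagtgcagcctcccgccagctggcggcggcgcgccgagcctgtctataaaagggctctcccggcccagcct
Gadd45b (chr10:80929841-80930090, plus strand): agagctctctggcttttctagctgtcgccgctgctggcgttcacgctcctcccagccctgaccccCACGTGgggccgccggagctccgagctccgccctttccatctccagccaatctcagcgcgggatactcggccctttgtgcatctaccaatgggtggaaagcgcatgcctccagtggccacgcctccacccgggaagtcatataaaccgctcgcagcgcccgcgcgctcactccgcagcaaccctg
Gadd45a (chr6:67037408-67037657, minus strand): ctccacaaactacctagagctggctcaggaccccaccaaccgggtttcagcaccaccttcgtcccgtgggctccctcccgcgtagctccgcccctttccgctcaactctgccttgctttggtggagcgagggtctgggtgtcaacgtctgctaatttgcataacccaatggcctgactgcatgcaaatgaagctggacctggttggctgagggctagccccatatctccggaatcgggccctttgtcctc
Ccne1 (chr7:38107491-38107740, minus strand): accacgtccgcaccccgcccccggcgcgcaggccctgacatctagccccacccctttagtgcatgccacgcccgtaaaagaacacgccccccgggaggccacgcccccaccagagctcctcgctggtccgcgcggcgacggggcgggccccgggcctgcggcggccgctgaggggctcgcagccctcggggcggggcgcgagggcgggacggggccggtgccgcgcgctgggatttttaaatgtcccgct

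Promoter windows of 300 bases, from 250 before to 50 after each annotated start, were searched for 6 of the 9 genes, with 7 windows since Cdkn1a has 2 starts. The promoter set used here holds no window for Wee1, Ccnd1 or Ccnd2. These genes, and with them the shared Wee1 region, could therefore not be searched for E-boxes. CACGTG, which reads the same on both strands, occurred in 2 of the 7 windows, those of Gadd45g and Gadd45b, and in 7.15% of the 32841 promoter windows of the mouse. In Gadd45g its first base lay 142 bases before the start. Both peaks cover it, and its middle was 57 bases upstream of the liver peak centre and 25 upstream of the kidney peak centre. In Gadd45b its first base lay 185 bases before the start, and no peak of the 3 lists overlapped that window. The window of Ccne1 had no CACGTG although 158 of the 188 bases of its kidney peak lie in it. Across the mouse, 45.2% of the 794 windows that hold a liver peak centre had a CACGTG, and 41.3% of the 1082 that hold a kidney peak centre.

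A peak centre lay in the promoter window of 2 of the 6 genes in kidney, Gadd45g and Ccne1, of 1 in liver, Gadd45g, and of none in heart. Over all 32841 windows the shares were 3.29% in kidney, 2.42% in liver and 1.57% in heart. The related hexamer CACGTT, searched on both strands, was in none of the 7 windows and in 4.69% of all. The loose form CANNTG, which includes CACGTG, was in 5 of the 7 and in 72.3% of all. The 2 windows without it were those of Cdkn1b and Ccne1.

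**Figure D4:**
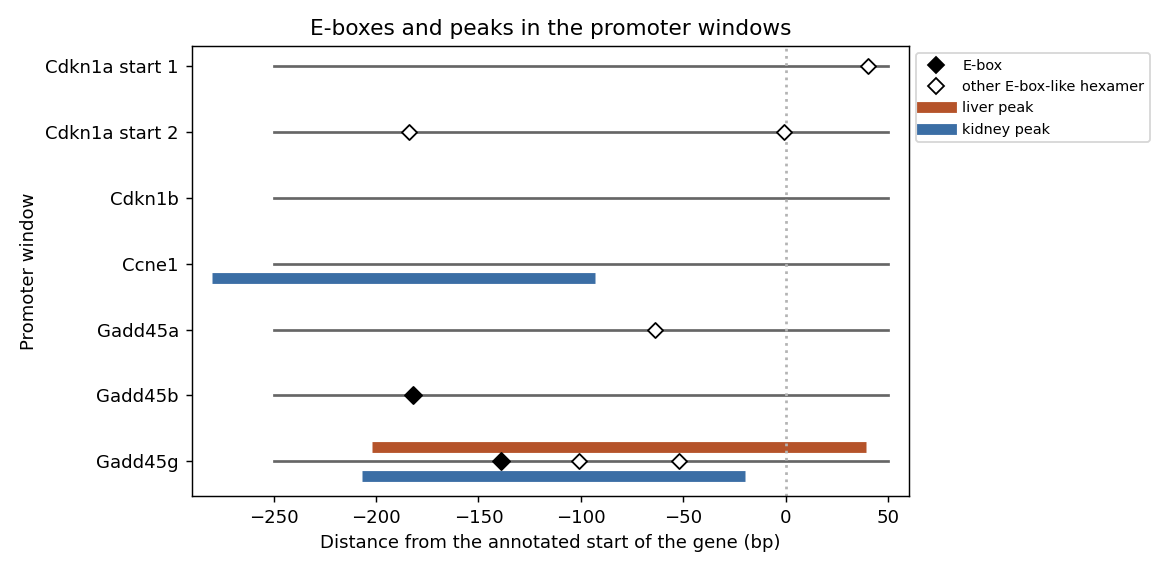
The 7 promoter windows of 6 genes, in bp from the annotated start (dotted line). Filled diamonds are CACGTG E-boxes, open diamonds other CANNTG hexamers, and bars the extent of overlapping liver and kidney peaks. The Gadd45g E-box lies under both peaks, the Gadd45b E-box under none, and the kidney peak of Ccne1 covers no diamond.

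The other genes of the pathway were taken from a list of 34 cyclins, kinases, phosphatases, inhibitors and checkpoint genes. This list too was chosen with earlier results of these data known. A liver peak lay at 9 of the 34 (26.5%), a kidney peak at 10 (29.4%) and a heart peak at 2 (5.88%), beside 18.3, 18.2 and 11.7% of all protein-coding genes. A peak of any list lay at 11 (32.4%), beside 31.0% of all protein-coding genes, and 23 had none. A region shared by liver and kidney and not heart lay at 6 of the 34, beside 5.19% of all protein-coding genes. Ccne2, the second gene of an E-type cyclin, had such a region inside it with a liver score of 199 at rank 47 and a kidney score of 91 at rank 250. Cdk4, the kinase partner of the D-type cyclins, had one 92 bp (liver) and 38 bp (kidney) outside the gene, with scores of 108 at rank 381 and 85 at rank 298. Ccnd3, the third D-type cyclin gene, had one 2629 bp from its end in liver, at rank 596, nearer to Taf8. Cdc25b, which encodes a phosphatase that removes the phosphates set by the WEE1 kinase, had a region shared by kidney (rank 104) and heart (rank 74), 6305 and 6264 bp away and nearer to Ap5s1. Sesn1, a stress-response gene, was the single gene of the list with a region common to all 3 tissues, at ranks 765, 502 and 520 in liver, kidney and heart. The coding gene nearest to that region is Cep57l1. Another liver peak, found in no other list, lay inside Sesn1 at rank 888, 132 bp from the nearer end of the gene.

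**Figure D5:**
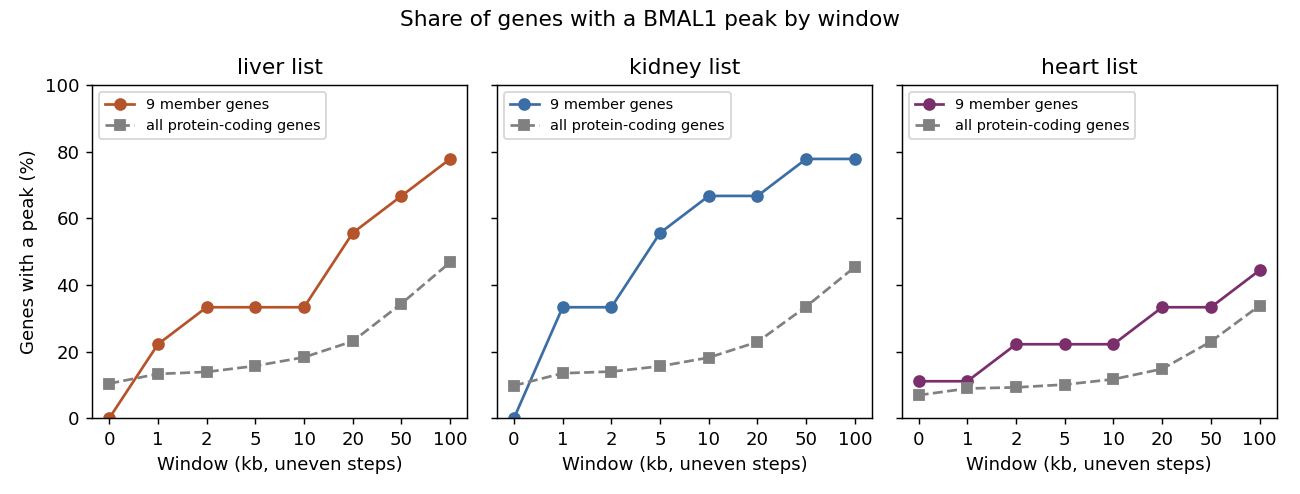
Share of genes with a peak as the window around the gene grows from 0 to 100 kb, for the 9 genes (circles) and all protein-coding genes (squares), in 1 panel per list. At 10 kb the 9 genes stand at 33.3, 66.7 and 22.2% and all protein-coding genes at 18.3, 18.2 and 11.7% in liver, kidney and heart. Inside genes alone (window 0) the liver and kidney shares of the 9 genes are 0%, beside 10.4 and 9.78% of all protein-coding genes. Each gap is smaller than the 11.1 percentage points of 1 gene, and the shares of all genes are not matched for gene length.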

How the data were processed

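The titles assigned the 18 libraries to a tissue and to ChIP or input. Per the labels, the authors pooled a tissue's 6 libraries before making its peak list. The submitters' processing notes name Bowtie2, SAMtools, HOMER and the build mm10, which is GRCm38. The sources used here give no versions, parameters or filters. A list holds positions and a score that the authors deposited, with no stated scale. A pool that was read more deeply or enriched better can hold more weak peaks.

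Gene ends came from the RefSeq table of GRCm38.p6, and starts and strands from its promoter table (32851 windows, 32841 without unknown bases). Coordinates are counted from 1. The table gives no exons. Peaks were joined when they overlapped by at least 1 bp, whatever their list. Ranks give tied peaks the best rank. Shares over all protein-coding genes serve as background, with no set test. Genes named were the 9 members, neighbours within 10 kb of a peak the nearest coding or noncoding gene of peaks outside the window (chosen after their values were seen), the 2 regions on either side of Wee1 in mean rank, and, of the 34 other genes, those with a common region or among the 3 best ranks of a list. The members and lists were chosen with earlier results of these data known. Peak placement and joining were tested on simulated data, which held no close pairs of peaks in a list and no neighbouring genes, so those cases were not tested. Python 3.11.15 and pandas 2.3.3 were used. The alternatives changed the window, the gene assignment, the threshold, the overlap rule, the order of ties and the motif.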

Additional observations from a re-analysis of the deposited data

How the results depend on the processing

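No paired analysis was possible because the authors' lists pool the 3 animals of a tissue, so no replicate could be left out or used as a block. The kidney count of 6 genes was 3 with a 2 kb window, in the upper 50% of each list and in lists cut to equal length. The liver count of 3 was 5 with a 20 kb window and 6 with 50 kb. Of all protein-coding genes 18.3% had a liver peak with 10 kb, 23.1% with 20 kb and 34.4% with 50 kb. A common region lay at 2 genes in place of 1 with 20 and 50 kb. The share of all protein-coding genes with a common region was not computed for these windows. Single-tissue regions, 7 of 10, were 4 of 6 with a 2 kb window, 4 of 6 in the upper 50% of each list and 14 of 19 with 50 kb. Here the counts were compared, and the total number of regions changed with them. The share over all regions was not computed for the upper 50%. The heart count of 2 did not move by over 1.5 times with windows of 2, 5, 20 and 50 kb. The same held by nearest coding gene and with either threshold on the peaks. With windows of 0 and 1 kb the heart count was 1, beside 6.92 and 8.93% of all protein-coding genes. With 100 kb it was 4, beside 33.8%.

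For the 34 other genes, alternatives chosen after seeing the data gave a kidney count of 5 with 2 kb, 5 by nearest coding gene and 6 in the upper 50%, against 10. The liver count was 15 with 50 kb, against 9, beside 34.4 and 18.3% of all protein-coding genes. The heart count was 1 with 5 kb and with 2 kb, 8 with 50 kb and 0 by nearest coding gene, against 2. All protein-coding genes stood at 10.1, 9.26 and 23.0% with 5, 2 and 50 kb, against 11.7%. With ties ranked last, the kidney ranks became 1472 for Ccnd1, 3322 for Ccne1, and 3030 for Cdkn1b and for Gadd45b. CANNTG in place of CACGTG raised the count of promoter windows from 2 to 5. The other 54 of 77 values from alternatives stayed within 1.5 times the reported count or, for ranks, within the exact 95% binomial interval of the share of higher-scoring peaks. Read depth is unknown, so a missing peak does not show missing binding.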
